A study of Rattus norvegicus with 7 samples.

Results

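The injury response of the rat cortex was compared between 1 day and 4 days after a cortical contusion (1 and 4 dpi, days post injury), an open-skull bruise made by dropping a weight onto a footplate resting on the dura. Each value was a log2 ratio of ipsilateral injured cortex over contralateral uninjured cortex of the same animal, with 0 for equal signal on both sides and positive values for more signal on the injured side. All animals were male Sprague Dawley rats and all had a contusion. The 1 dpi group held 3 animals and the 4 dpi group 4 other animals, with 1 cDNA array per animal. Sham-operated animals were not analysed here, and a change in the contralateral cortex would move the ratio as well. The difference was the mean log2 ratio of the 4 dpi arrays minus that of the 1 dpi arrays. Of 6240 clones on the array, 3188 were compared, those measured on 2 or 3 of the 3 arrays of 1 dpi and on 3 or 4 of the 4 arrays of 4 dpi. At 1 dpi, 4952 clones met that minimum, and 3191 did so at 4 dpi. Names were given by clone ID to 131 of the 3188 clones from the lists of regulated genes of the study, which had been chosen on these same arrays.

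A contusion tears vessels and kills cells at the site of impact. In the first day, surviving cells switch on immediate early transcription factors and stress enzymes, and over the next days microglia and infiltrating macrophages take up debris in their lysosomes while fibroblast-like and glial cells lay down extracellular matrix. In a ratio from whole tissue, fewer cells of a type and less RNA per cell cannot be told apart.

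The number of clones with a value was 3993, 5208 and 5041 on replicates 1, 2 and 3 of 1 dpi, and 4133, 5082, 2332 and 3270 on replicates 1, 2, 3 and 4 of 4 dpi. Over clones, the arrays of 1 dpi correlated with each other at 0.58 to 0.78, the arrays of 4 dpi at 0.49 to 0.74, and arrays of different days at 0.01 to 0.64, with genes not being independent replicates. Replicate 2 of 4 dpi correlated at 0.64, 0.55 and 0.63 with replicates 1, 2 and 3 of 1 dpi. With replicates 1, 3 and 4 of its own day it correlated at 0.49, 0.68 and 0.73. Replicate 3 of 4 dpi had the fewest values, and all 83 listed clones that were left out of the comparison lacked a value on it. Labelled cortex could not be checked against levels of neural markers, because the values are ratios of 2 sides of the same tissue.

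From 1 to 4 dpi the ratio rose for osteopontin, osteoactivin and granulin, grouped here with phagocyte and immune clones. It also rose for the matrix proteins osteonectin and collagen type I, and for the protease trap alpha-2-macroglobulin. It fell for ATF-4 and c-jun, transcription factors of the stress response, and for tissue plasminogen activator. Of these falls, only that of ATF-4 passed the test given below with any 1 array left out. The peptide transporter PEPT2, angiotensinogen and a pair of enzymes of fat oxidation, which had been below the uninjured side at 1 dpi, rose. In a joint limma fit of the 7 arrays, 159 of the 3188 clones differed between the days at an adjusted p of 0.05 or less, 111 higher and 48 lower at 4 dpi. That is 4.99% of the clones tested, with 3.48% higher and 1.51% lower. Without adjustment, 631 clones had a p under 0.05. The size of the difference had a median of 0.17 over all clones tested and of 0.82 over the 159, which ranged from 0.50 to 3.54. In all 159 clones the arrays of the 2 days did not overlap, and over all clones tested this was so for 19.9%, 10.9% with 4 dpi above and 9.07% with 4 dpi below 1 dpi. When 1 array was left out, the number of clones that differed was 37 without replicate 1, 59 without replicate 2 and 145 without replicate 3 of 1 dpi, and 96, 193, 200 and 70 without replicates 1, 2, 3 and 4 of 4 dpi. In every one of these fits, 34 clones differed, of which 17 had a gene name. For the 6 of the 159 clones with 2 values at 1 dpi, 3 of them named, leaving out either value leaves 1 array on that day. Its spread is then assumed to be that of the other day and of other clones.

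**Figure D1:**
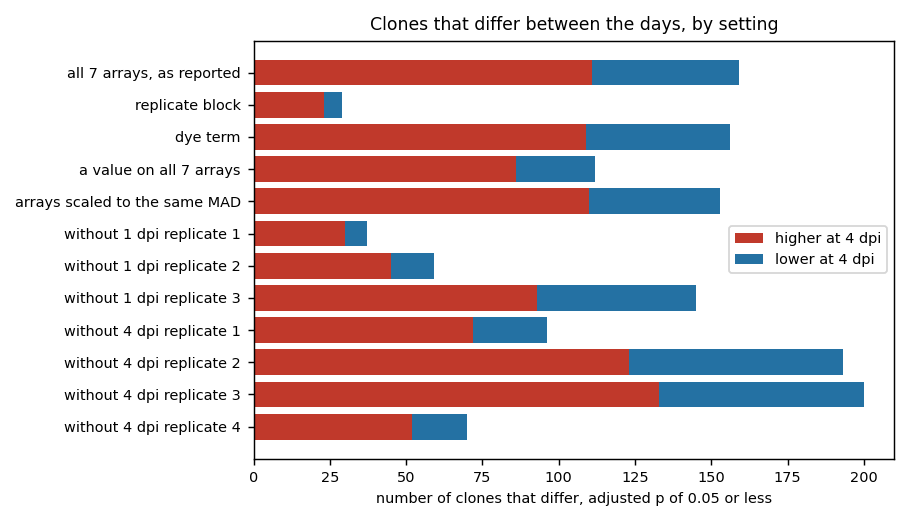
Number of clones past the test of 4 dpi minus 1 dpi (x axis) with all 7 arrays, under 4 other settings and without each array in turn; red stands for clones higher and blue for clones lower at 4 dpi. The count lay at 159 with all arrays and at 37 without replicate 1 of 1 dpi, and higher clones outnumbered lower clones in every bar.

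The commonest course was a crossing of 0. Of the 159 clones, 108 had mean log2 ratios of opposite sign on the 2 days, 3.39% of the clones tested. Opposite signs were seen in 34.3% of all 3188 clones and in 67.9% of the 159. In 82 clones the mean went from below 0 at 1 dpi to above 0 at 4 dpi, and in 26 from above to below. A further 17 clones were above 0 on both days and higher at 4 dpi, 21 were above 0 on both days and lower at 4 dpi, 12 were below 0 on both days and nearer to 0 at 4 dpi, and 1 was below 0 on both days and farther from it at 4 dpi. Every array of 1 dpi lay on one side of 0 and every array of 4 dpi on the other in 55 of the 159 clones, and in 44 both means departed from 0 at an unadjusted p under 0.05 in the same fit. Over all 3188 clones these numbers were 149 and 54. The count of 108 was 24 without replicate 1 and 38 without replicate 2 of 1 dpi, and 54 and 46 without replicates 1 and 4 of 4 dpi.

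**Figure D2:**
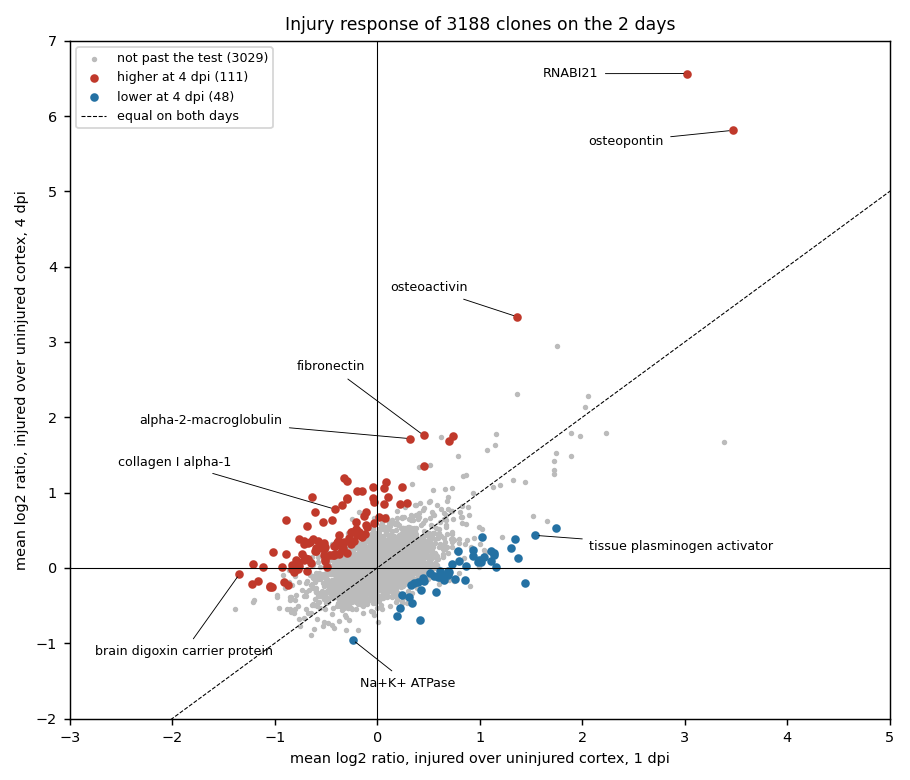
Mean log2 ratio of injured over uninjured cortex at 1 dpi (x axis) and at 4 dpi (y axis) for the 3188 clones compared, 1 point per clone; red clones were higher and blue clones lower at 4 dpi, grey clones did not pass the test, and the dashed line marks equal means. The upper left part of the plot holds the 82 clones that went from below to above 0, and RNABI21 and osteopontin lie farthest above the line.

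Clones with a gene name made up 50 of the 159, 34 higher and 16 lower at 4 dpi. Among them, 15 went from below to above 0 and 4 from above to below. Another 12 were above 0 on both days and higher at 4 dpi, 11 were above 0 on both days and lower at 4 dpi, 7 were below 0 and nearer to it at 4 dpi, and 1 was farther below it. Of the clones listed as upregulated at 1 dpi, 20 of 54 tested were lower and 0 higher at 4 dpi, with a median difference of -0.68. Of those listed as downregulated at 1 dpi, 20 of 41 were higher and 0 lower, with a median of 0.77. Of those listed as upregulated at 4 dpi, 15 of 34 were higher and 0 lower, with a median of 0.58, and of the 7 listed as downregulated at 4 dpi, 0 were higher and 1 lower, with a median of -0.34. Of the 19 listed as upregulated on both days, 4 were higher and 0 lower, with a median of 0.21. Of the listed clones used, only 54 of 122 upregulated and 41 of 56 downregulated at 1 dpi could be tested. All those listed at 4 dpi or on both days could be. The filter thus removed clones upregulated at 1 dpi most of all, which bears on the counts of higher and lower clones. The median over all clones tested was 0.01. Because these lists were drawn up on the same arrays, neither the share of named clones that differed nor its direction is independent evidence, which holds for every count by role below. For 49 of the 50 named clones a difference could be taken within each dye orientation, and in all 49 it had the same sign in both. With the dye as a term, 45 of the 50 passed the test, and ornithine decarboxylase, lyk4, natural resistance-associated macrophage protein 2, phospholemman and the C1q beta chain did not (adjusted p from 0.05002 to 0.0661). With arrays scaled to the same median absolute deviation, 42 of the 50 passed. Those that did not were tissue plasminogen activator, c-jun, C10, natural resistance-associated macrophage protein 2, ornithine decarboxylase, lyk4, guanylyl cyclase and 1-Cys peroxiredoxin (adjusted p from 0.0505 to 0.115). Peroxiredoxin did not pass with arrays centred either (adjusted p = 0.0505).

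**Figure D3:**
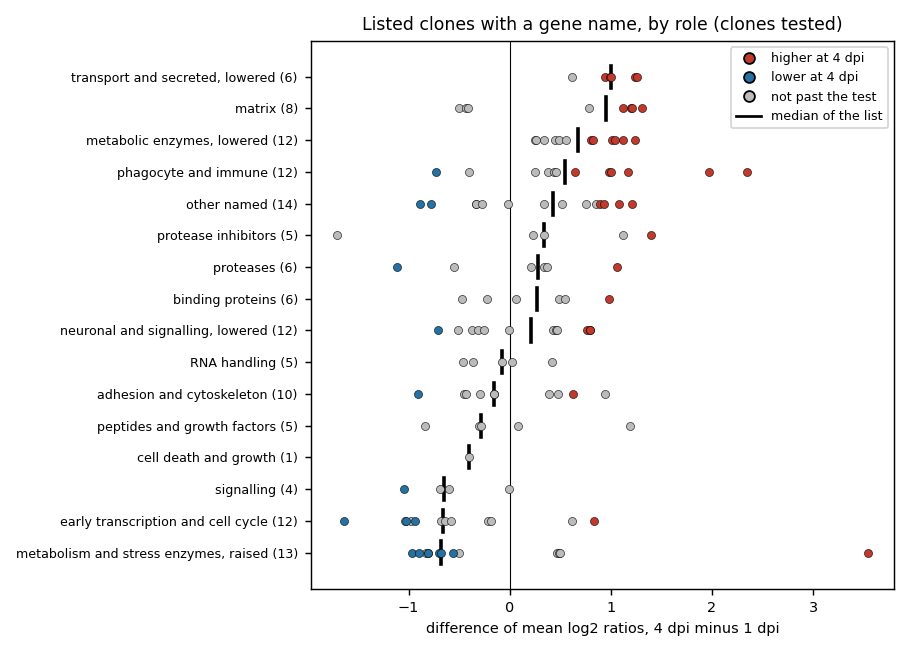
Difference of mean log2 ratios, 4 dpi minus 1 dpi (x axis), for the 131 named clones by role (y axis, number tested in brackets), 1 point per clone; red and blue points passed the test, grey points did not, and black bars are medians. Transporters and secreted proteins listed as lowered had the highest median, 1.00, and enzymes of metabolism and stress listed as raised the lowest, -0.68.

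The extracellular matrix is the scaffold of collagens and adhesive glycoproteins that is deposited when a wound is filled. Of 8 matrix clones tested, 4 rose from 1 to 4 dpi and 0 fell, with a median difference of 0.95. Values are given below in the order of the replicate numbers of each day. The clone of osteonectin (RGIAQ88), also known as SPARC, a collagen-binding glycoprotein, had log2 ratios of -0.55, -0.32 and -0.03 at 1 dpi and 1.01, 0.66, 0.93 and 1.06 at 4 dpi. Its mean went from -0.30 ± 0.26 (SD, n = 3) to 0.91 ± 0.18 (SD, n = 4), a difference of 1.21 ± 0.16 (adjusted p = 0.00204), where the error of a difference is here and below its standard error and the p is that of limma after Benjamini-Hochberg adjustment. All 3 arrays of 1 dpi were below 0 and all 4 arrays of 4 dpi were above it. Collagen type I alpha-1 (RGIAN74), a chain of the main fibrillar collagen, had -0.32, -0.82 and -0.11 at 1 dpi and 0.71, 0.79, 0.78 and 0.85 at 4 dpi, again with the days on opposite sides of 0 and a difference of 1.20 ± 0.17 (adjusted p = 0.00258). The calls of these 2 clones held with any 1 array left out.

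Fibronectin (RGIAQ36), the adhesive protein of provisional wound matrix, was above 0 on every array, with 0.63, 0.46 and 0.27 at 1 dpi and 1.00, 1.67, 2.23 and 2.14 at 4 dpi. The ratio rose 2.48-fold, a log2 difference of 1.31 ± 0.25 (adjusted p = 0.0111). Collagen type III alpha 1 (RGIAM23), the partner of type I in early scar, had -0.30, -0.65 and 0.82 at 1 dpi and 1.20, 1.18, 0.83 and 1.10 at 4 dpi. Its arrays of 1 dpi were spread more widely than those of 4 dpi, and the difference was 1.12 ± 0.27 (adjusted p = 0.0355). Fibronectin was not past the test without replicate 1 or 2 of 1 dpi (adjusted p from 0.0512 to 0.053), and collagen type III was not without replicate 1 or 2 of 1 dpi or replicate 1, 2 or 4 of 4 dpi (adjusted p from 0.0518 to 0.159). Without replicate 1 or without replicate 2 of 1 dpi, 2 of the 8 matrix clones passed. The 4 other matrix clones did not pass. They were vitronectin, which passed with the dye as a term and is described with the genes measured by PCR, and prolyl 4-hydroxylase beta polypeptide, fibulin 2 and matrix Gla protein, whose differences were -0.51, -0.43 and -0.41.

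Phagocytes clear debris through complement tagging, uptake and lysosomal digestion. Of 12 phagocyte and immune clones tested, 6 were higher and 1 was lower at 4 dpi, with a median difference of 0.55. Osteopontin (RNABT23), a secreted phosphoprotein of activated macrophages, was high on every array, with 2.64, 3.32 and 4.44 at 1 dpi and 5.60, 5.26, 6.79 and 5.59 at 4 dpi. Even the lowest array of 4 dpi exceeded the highest of 1 dpi, and the ratio rose another 5.08-fold, by 2.34 ± 0.40 (adjusted p = 0.00775). Osteoactivin (RGIAR28), the transmembrane glycoprotein Gpnmb of macrophages with loaded lysosomes, had 0.83, 1.93 and 1.33 at 1 dpi and 2.51, 3.21, 3.93 and 3.69 at 4 dpi. The mean went from 1.36 ± 0.55 (SD, n = 3) to 3.34 ± 0.63 (SD, n = 4), a difference of 1.97 ± 0.31 (adjusted p = 0.00583). Granulin (RGIAA16), a secreted growth factor precursor that reaches lysosomes, had 0.03, -0.13 and -0.35 at 1 dpi and 0.91, 0.92, 1.02 and 1.25 at 4 dpi. It lay around 0 at 1 dpi, no array of 4 dpi was below 0.8, and the difference was 1.17 ± 0.15 (adjusted p = 0.00198).

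Complement C1q, which starts the classical pathway, was represented by 2 chains, and both rose. The C1q C chain precursor (RGIAJ90) had 0.64, 0.65 and 0.82 at 1 dpi and 1.24, 1.72, 1.75 and 2.04 at 4 dpi, a difference of 0.99 ± 0.18 (adjusted p = 0.00923). The C1q beta chain (RNABQ08) had 0.56, 0.89 and 0.78 at 1 dpi and 1.22, 1.69 and 2.33 at 4 dpi (replicates 1, 2 and 4), a difference of 1.00 ± 0.24 (adjusted p = 0.0372). Both chains were above 0 on all arrays of both days, and in both replicate 1 was the lowest array of 4 dpi. The clone listed as C10 (RGIAI44) moved from below 0 toward it, with -0.84, -0.50 and -0.71 at 1 dpi and 0.04, -0.34, 0.00 and 0.13 at 4 dpi and a difference of 0.64 ± 0.15 (adjusted p = 0.0311). Natural resistance-associated macrophage protein 2 (RNACD17), the divalent metal transporter DMT1, ran the other way with 0.48, 0.71 and 0.87 at 1 dpi and -0.33, 0.16 and 0.06 at 4 dpi (replicates 1, 2 and 4), a difference of -0.73 ± 0.17 (adjusted p = 0.0364). Its mean crossed from above to below 0.

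Among these 7 clones, osteopontin, osteoactivin and granulin held their calls with any 1 array left out. C1q C was not past the test without replicate 1 of 1 dpi (adjusted p = 0.0551), C1q beta was not without replicate 1, 2 or 3 of 1 dpi or replicate 2 or 4 of 4 dpi (adjusted p from 0.0536 to 0.15), C10 was not without replicate 1, 2 or 3 of 1 dpi or replicate 1 or 4 of 4 dpi (adjusted p from 0.0569 to 0.147) and the metal transporter was not without replicate 1, 2 or 3 of 1 dpi or replicate 1 or 4 of 4 dpi (adjusted p from 0.0718 to 0.137). Beta-2-microglobulin (0.25), class III Fc gamma receptor (0.38), macrophage expressed gene 1 (0.44), CD24 antigen (0.46) and FYN binding protein (-0.41) did not pass. Their adjusted p values ran from 0.0956 to 0.595. The Fc gamma receptor passed in 1 fit with an array left out (0.77, adjusted p = 0.0149, without replicate 1 of 4 dpi). Of the 12 clones, 3 passed without replicate 1 of 1 dpi, and 4 each without replicate 2 or 3 of 1 dpi or replicate 4 of 4 dpi.

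**Figure D4:**
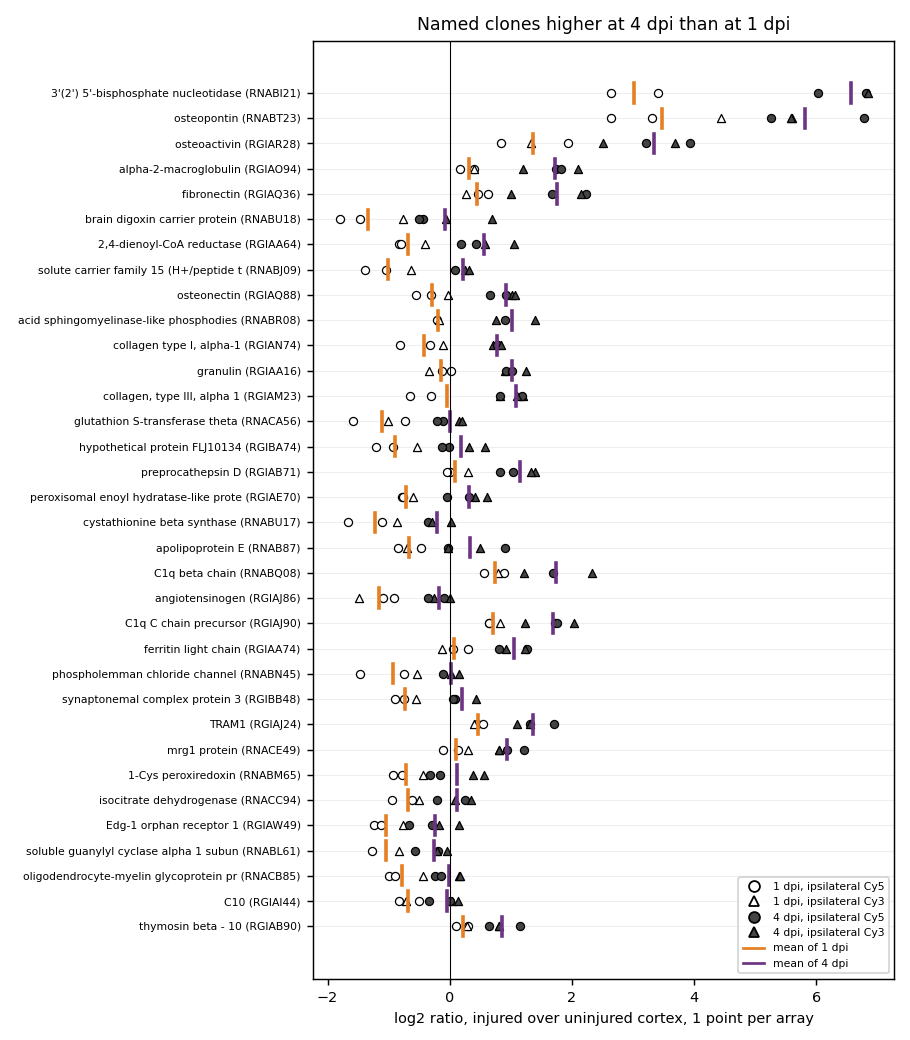
Log2 ratio of injured over uninjured cortex on each array (x axis) for the 34 named clones that were higher at 4 dpi (y axis, clone ID in brackets, ordered by the size of the difference); open symbols are 1 dpi, filled symbols 4 dpi, circles arrays with ipsilateral RNA in Cy5 and triangles in Cy3, and vertical bars are means. Open and filled symbols are separate in every line, and most open symbols lie below 0.

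Proteases and their inhibitors both remodel a wound. Of 6 protease clones tested, 1 rose and 1 fell, with a median difference of 0.28, and of 5 inhibitor clones 1 rose and 0 fell, with a median of 0.34. Preprocathepsin D (RGIAB71), the main lysosomal aspartic protease, had 0.00, -0.05 and 0.30 at 1 dpi and 1.40, 0.81, 1.04 and 1.34 at 4 dpi. It was near 0 on every array of 1 dpi and rose by 1.06 ± 0.17 (adjusted p = 0.00583), a call that held with any 1 array left out. Tissue plasminogen activator (RNABP80), the serine protease that turns plasminogen into plasmin, had 1.64, 1.60 and 1.39 at 1 dpi and -0.27, 0.94, 0.62 and 0.44 at 4 dpi. Its mean fell from 1.54 ± 0.14 (SD, n = 3) to 0.43 ± 0.51 (SD, n = 4), a difference of -1.11 ± 0.23 (adjusted p = 0.0173), and the call was lost without replicate 1 or 2 of 1 dpi (adjusted p from 0.0773 to 0.0952). Alpha-2-macroglobulin (RGIAO94), a broad protease trap of the rat acute phase, had 0.40, 0.17 and 0.39 at 1 dpi and 1.20, 1.74, 1.83 and 2.10 at 4 dpi. The arrays of 1 dpi lay close together and every array of 4 dpi was higher, by 1.40 ± 0.19 (adjusted p = 0.00258), with any 1 array left out as well. Cathepsin Y (0.21), ER-60 protease (0.34), myelencephalon specific protease (0.36) and carboxypeptidase D (-0.55) did not pass. Nor did pancreatic secretory trypsin inhibitor type II (1.12, adjusted p = 0.0937) and the contrapsin-like inhibitor CPI-26 (0.23, adjusted p = 0.915). The trypsin inhibitor and carboxypeptidase D each passed in 1 fit with an array left out (1.55, adjusted p = 0.000198, without replicate 1 of 4 dpi, and -0.61, adjusted p = 0.0491, without replicate 3 of 4 dpi).

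The largest difference of all 3188 clones belonged to RNABI21, named in the lists as 3'(2') 5'-bisphosphate nucleotidase, an enzyme of sulphur assimilation. The name comes from the lists alone, and the insert of the clone was not checked here. The clone had 2.64 and 3.41 at 1 dpi (replicates 1 and 2) and 6.03, 6.82 and 6.85 at 4 dpi (replicates 2, 3 and 4), so that 2 arrays of 1 dpi stood against 3 of 4 dpi. The mean went from 3.02 ± 0.54 (SD, n = 2) to 6.56 ± 0.46 (SD, n = 3), an 11.6-fold rise of the ratio and a difference of 3.54 ± 0.29 (adjusted p = 0.000485). It also passed in each fit with 1 array left out, in 2 of which 1 dpi was held by 1 array. Ferritin light chain (RGIAA74), a subunit of the iron store, had 0.05, 0.29 and -0.13 at 1 dpi and 0.91, 0.80, 1.27 and 1.24 at 4 dpi. It rose from near 0 by 0.98 ± 0.16 (adjusted p = 0.00678), and the call held with any 1 array left out. It was the 1 of 6 binding protein clones that passed with all arrays, and their median was 0.27. Retinol-binding protein 1 (0.48) passed in 1 fit with an array left out (1.02, adjusted p = 0.0431, without replicate 3 of 1 dpi). It was below 0 in another (-0.06 without replicate 2 of 1 dpi). Transferrin (0.54) passed in 1 fit with an array left out (0.69, adjusted p = 0.0282, without replicate 2 of 4 dpi).

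Of 10 adhesion and cytoskeleton clones tested, 1 rose and 1 fell, with a median difference of -0.16. Thymosin beta-10 (RGIAB90), which binds actin monomers, had 0.09, 0.30 and 0.27 at 1 dpi and 0.80, 0.65, 1.14 and 0.81 at 4 dpi and rose by 0.63 ± 0.15 (adjusted p = 0.0308). Syndecan 4 (RNABM48), a heparan sulphate proteoglycan of focal adhesions, had 0.86, 1.34 and 0.75 at 1 dpi and -0.39, 0.24, 0.56 and -0.08 at 4 dpi and fell, with a difference of -0.90 ± 0.22 (adjusted p = 0.0342). Neither call was robust to single arrays, since thymosin beta-10 was not past the test without replicate 1, 2 or 3 of 1 dpi or replicate 1 or 4 of 4 dpi (adjusted p from 0.0561 to 0.144) and syndecan 4 was not without replicate 1 or 2 of 1 dpi or replicate 1 or 4 of 4 dpi (adjusted p from 0.0645 to 0.159). Without replicate 1 or 2 of 1 dpi or replicate 4 of 4 dpi, 0 of the 10 passed, and without replicate 1 of 4 dpi 1 did. Vimentin, the intermediate filament of reactive astrocytes and mesenchymal cells, had a difference of 0.94 ± 0.28 (adjusted p = 0.0742), and annexin II, III and V had -0.43, 0.39 and 0.47. Vimentin passed without single arrays (1.22, adjusted p = 0.0313, without replicate 3 of 1 dpi and 1.14, adjusted p = 0.0225, without replicate 1 of 4 dpi), as did annexin V (0.60, adjusted p = 0.0288, without replicate 2 of 4 dpi) and, with a difference below 0, ezrin (-0.52, adjusted p = 0.046, without replicate 3 of 4 dpi).

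Immediate early and stress-response transcription factors are switched on within hours of an insult and fade as the stimulus ends. Of 12 clones of early transcription and cell cycle tested, 3 fell and 1 rose, with a median difference of -0.66. Activating transcription factor 4 (RNACA21), the effector of the integrated stress response, had 0.82, 0.89 and 0.86 at 1 dpi and -0.41, 0.06, -0.07 and -0.23 at 4 dpi. The 3 arrays of 1 dpi lay within 0.1 of each other and all 4 arrays of 4 dpi were below 0.1. The mean fell from 0.86 ± 0.03 (SD, n = 3) to -0.16 ± 0.20 (SD, n = 4), a difference of -1.02 ± 0.14 (adjusted p = 0.00258), which held with any 1 array left out. The proto-oncogene c-jun (RGIAK48), a subunit of AP-1, had 1.49, 1.21 and 0.71 at 1 dpi and -0.18, 0.48 and 0.29 at 4 dpi (replicates 1, 2 and 3) and a difference of -0.94 ± 0.22 (adjusted p = 0.0364). The mrg1 protein (RNACE49), a transcriptional coregulator now called Cited2, was the 1 clone of the list that rose, with -0.12, 0.14 and 0.30 at 1 dpi and 0.81, 0.93, 1.21 and 0.81 at 4 dpi and a difference of 0.83 ± 0.15 (adjusted p = 0.00923).

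The clone of c-jun was not past the test without replicate 1 or 2 of 1 dpi or replicate 1 or 4 of 4 dpi (adjusted p from 0.054 to 0.15), whereas mrg1 lost its call without replicate 1 of 1 dpi (adjusted p = 0.0653). Other members of the list had differences below 0 that did not pass. They were p55-c-fos with -1.04 ± 0.61 (adjusted p = 0.402), p53 with -0.97 ± 0.27 (adjusted p = 0.0641), TIS11 with -0.68, CDC21 with -0.64, histone H3.3 with -0.58, melanocyte-specific gene 1 with -0.22 and cyclin-dependent kinase 4 with -0.18. Nuclear factor kappa B had a difference of 0.61 ± 0.21 (adjusted p = 0.118). For c-fos, the partner of c-jun in AP-1, the values were 2.51, 1.77 and 0.70 at 1 dpi and -0.95, 2.00 and 0.82 at 4 dpi (replicates 1, 2 and 3), and the arrays of the 2 days overlapped. With single arrays left out, p53 (-1.22, adjusted p = 0.0204, without replicate 2 of 4 dpi and -0.97, adjusted p = 0.0491, without replicate 3 of 4 dpi), histone H3.3 (-0.70, adjusted p = 0.0431, without replicate 3 of 1 dpi and -0.65, adjusted p = 0.043, without replicate 2 of 4 dpi) and nuclear factor kappa B (0.77, adjusted p = 0.0441, without replicate 1 of 4 dpi) passed. With the dye as a term histone H3.3 passed too (-0.54, adjusted p = 0.0391). Without replicate 1 of 1 dpi, 1 of the 12 clones passed, and 2 did without replicate 2 of 1 dpi or replicate 4 of 4 dpi.

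Of 4 signalling clones listed as upregulated, 1 fell and 0 rose, with a median of -0.64. It was the cAMP-specific phosphodiesterase PDE4B (RGIBB95), which ends cAMP signals, with 1.56, 1.32 and 1.05 at 1 dpi and -0.18, 0.61, 0.21 and 0.41 at 4 dpi. Its mean went from 1.31 ± 0.26 (SD, n = 3) to 0.26 ± 0.34 (SD, n = 4), a difference of -1.05 ± 0.19 (adjusted p = 0.00923), and the call was lost without replicate 1 of 1 dpi (adjusted p = 0.0653). Nucleoside diphosphate kinase (-0.69), the dual-specificity phosphatase rVH6 (-0.60) and a protein tyrosine phosphatase (0.00) did not pass. The kinase (-1.04, adjusted p = 0.0245, without replicate 2 of 4 dpi) and rVH6 (-0.93, adjusted p = 0.0195, without replicate 2 of 4 dpi) passed in 1 fit each with an array left out.

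Enzymes of metabolism and stress that had been listed as upregulated fell in 6 of 13 clones, with RNABI21 as the 1 that rose and a median of -0.68. Thioredoxin reductase 1 (RNABR75), which keeps thioredoxin reduced, had 0.93, 1.37 and 1.13 at 1 dpi and -0.39, 0.26, 0.31 and 0.52 at 4 dpi and a difference of -0.97 ± 0.20 (adjusted p = 0.0178). Polyamine synthesis was represented by ornithine decarboxylase (RGIAC87), its rate-limiting enzyme, with 1.37, 0.96 and 1.02 at 1 dpi and -0.13, 0.80, -0.23 and 0.44 at 4 dpi and a difference of -0.90 ± 0.23 (adjusted p = 0.044). The ornithine decarboxylase antizyme inhibitor (RNABX26), which protects that enzyme from degradation, had 0.80, 0.77 and 0.40 at 1 dpi and -0.12, -0.13 and -0.22 at 4 dpi (replicates 1, 3 and 4). Both polyamine clones were above 0 on all arrays of 1 dpi, and the antizyme inhibitor was below 0 on every measured array of 4 dpi, with a difference of -0.81 ± 0.15 (adjusted p = 0.0132). The others that fell were serine hydroxymethyltransferase (RNACA91) of folate metabolism, tryptophan-2,3-dioxygenase (RNABK11) of tryptophan breakdown and phosphofructokinase (RNABU76) of glycolysis. Serine hydroxymethyltransferase had 0.92, 0.65 and 1.23 at 1 dpi and 0.27, 0.11 and 0.33 at 4 dpi (replicates 1, 2 and 4), a difference of -0.70 ± 0.17 (adjusted p = 0.0414). Tryptophan-2,3-dioxygenase had 0.71, 0.91 and 0.57 at 1 dpi and -0.13, 0.21, 0.18 and -0.07 at 4 dpi, a difference of -0.68 ± 0.14 (adjusted p = 0.0202). For phosphofructokinase the values were 0.66, 0.92 and 0.78 at 1 dpi and 0.12, 0.29, 0.28 and 0.21 at 4 dpi, and the difference was -0.56 ± 0.13 (adjusted p = 0.0283).

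None of these 6 calls held without each array. Thioredoxin reductase 1 was not past the test without replicate 1 or 2 of 1 dpi (adjusted p from 0.0537 to 0.0983), ornithine decarboxylase was not without replicate 1, 2 or 3 of 1 dpi or replicate 1, 3 or 4 of 4 dpi (adjusted p from 0.0645 to 0.2), and the antizyme inhibitor was not without replicate 1 or 2 of 1 dpi or replicate 4 of 4 dpi (adjusted p from 0.054 to 0.0781). Serine hydroxymethyltransferase was not past it without replicate 1 or 3 of 1 dpi or replicate 1, 2 or 4 of 4 dpi (adjusted p from 0.0862 to 0.131), tryptophan-2,3-dioxygenase was not without replicate 1 or 2 of 1 dpi or replicate 1 or 4 of 4 dpi (adjusted p from 0.0584 to 0.103), and phosphofructokinase was not without replicate 1, 2 or 3 of 1 dpi or replicate 1 or 4 of 4 dpi (adjusted p from 0.0577 to 0.13). Without replicate 1 of 1 dpi, 1 of the 13 clones passed, and 2, 3 and 2 did without replicate 2 of 1 dpi and replicates 1 and 4 of 4 dpi. Metallothionein (-0.83), glucose transporter type 1 (-0.81, adjusted p = 0.0862) and lactate dehydrogenase A (-0.50) did not pass, though the transporter (-1.03, adjusted p = 0.0478, without replicate 3 of 1 dpi and -1.02, adjusted p = 0.0162, without replicate 2 of 4 dpi) and the dehydrogenase (-0.69, adjusted p = 0.0124, without replicate 3 of 4 dpi) did with single arrays left out. Differences above 0 that did not pass belonged to glutathione reductase (0.47), spermidine/spermine N1-acetyltransferase (0.48), which breaks polyamines down, and glucuronyltransferase I (0.50).

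**Figure D5:**
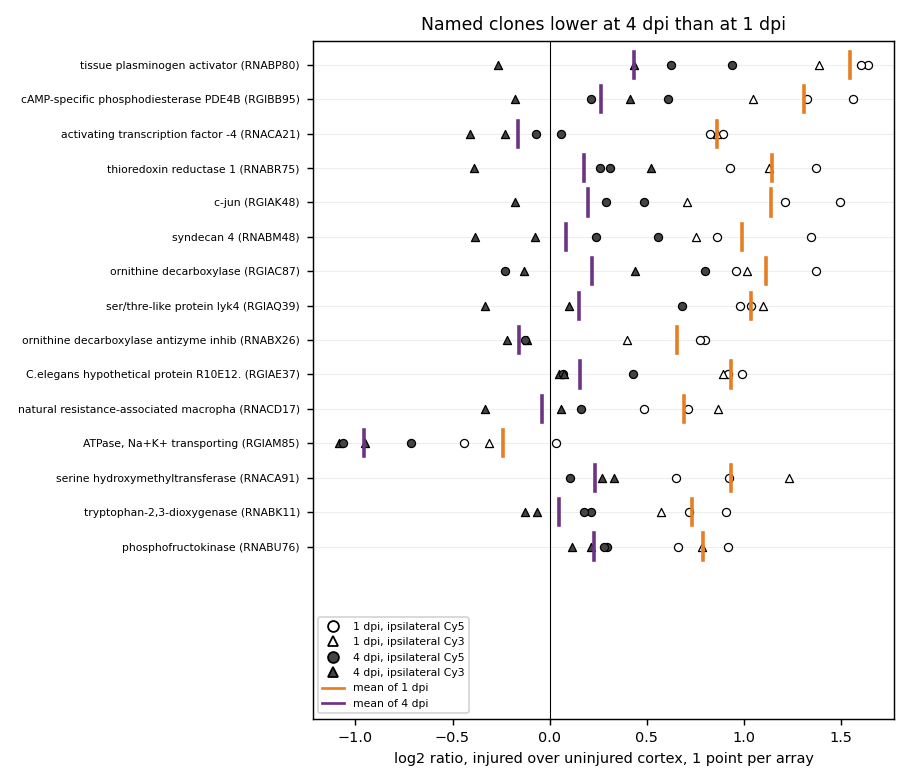
Log2 ratio of injured over uninjured cortex on each array (x axis) for 15 of the 16 named clones that were lower at 4 dpi (y axis, clone ID in brackets, ordered by the size of the difference), with symbols as in the plot of the higher clones (open 1 dpi, filled 4 dpi, circles Cy5, triangles Cy3, bars means). All but Na+K+ ATPase have means above 0.6 at 1 dpi, and filled symbols lie on both sides of 0.

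Of 12 metabolic enzymes listed as downregulated at 1 dpi, 6 rose and 0 fell, and all 12 differences were above 0, with a median of 0.68. The mitochondrial enzyme 2,4-dienoyl-CoA reductase (RGIAA64), needed to oxidise unsaturated fatty acids, had -0.84, -0.80 and -0.41 at 1 dpi and 0.57, 0.18, 0.43 and 1.04 at 4 dpi. All arrays of 1 dpi were below 0 and all of 4 dpi above it, a difference of 1.24 ± 0.19 (adjusted p = 0.00583). Another enzyme of fat oxidation, the peroxisomal enoyl hydratase-like protein (RGIAE70), had -0.79, -0.77 and -0.60 at 1 dpi and 0.41, -0.05, 0.32 and 0.61 at 4 dpi, a difference of 1.04 ± 0.16 (adjusted p = 0.00583). Glutathione S-transferase theta (RNACA56), a detoxifying enzyme, had -1.59, -0.74 and -1.01 at 1 dpi and 0.15, -0.11, -0.21 and 0.19 at 4 dpi. It was far below 0 at 1 dpi and around 0 at 4 dpi, a difference of 1.12 ± 0.19 (adjusted p = 0.0082). The calls of these 3 enzymes held with any 1 array left out.

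Isocitrate dehydrogenase (RNACC94) had -0.94, -0.62 and -0.51 at 1 dpi and 0.08, -0.22, 0.24 and 0.35 at 4 dpi, a difference of 0.80 ± 0.17 (adjusted p = 0.0173). The antioxidant 1-Cys peroxiredoxin (RNABM65) had -0.93, -0.78 and -0.43 at 1 dpi and 0.38, -0.17, -0.32 and 0.55 at 4 dpi, a difference of 0.82 ± 0.21 (adjusted p = 0.0463). Both means crossed 0, with arrays of 4 dpi on either side. Cystathionine beta synthase (RNABU17), the first enzyme from homocysteine to cysteine, had -1.68, -1.12 and -0.86 at 1 dpi and 0.03, -0.36 and -0.29 at 4 dpi (replicates 1, 2 and 4) and stayed below 0 on average, with a difference of 1.01 ± 0.21 (adjusted p = 0.0193). Isocitrate dehydrogenase was not past the test without replicate 1 or 2 of 1 dpi or replicate 4 of 4 dpi (adjusted p from 0.054 to 0.108), peroxiredoxin was not without replicate 1 or 2 of 1 dpi or replicate 1 or 4 of 4 dpi (adjusted p from 0.107 to 0.2) and cystathionine beta synthase was not without replicate 1 or 2 of 1 dpi or replicate 1 or 4 of 4 dpi (adjusted p from 0.0539 to 0.0781). Without replicate 1 or without replicate 2 of 1 dpi, 3 of the 12 enzymes passed, as they did without replicate 4 of 4 dpi. Among the 6 enzymes that did not pass were lipoprotein lipase (0.56), the mitochondrial carnitine/acylcarnitine carrier (0.49) and the glutathione S-transferases of the alpha (0.45) and mu 3 (0.26) types. They also held protein disulfide isomerase A3 precursor (0.34) and beta-1,3-glucuronyltransferase 1 (0.25). The lipase passed in 1 fit with an array left out (0.71, adjusted p = 0.0491, without replicate 3 of 4 dpi).

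Of 6 transporters and secreted proteins listed as lowered, 5 rose and 0 fell, with a median of 1.00. Solute carrier family 15 member 2 (RNABJ09), the proton-coupled peptide transporter PEPT2 of astrocytes and choroid plexus, had -1.39, -1.04 and -0.63 at 1 dpi and 0.26, 0.08 and 0.32 at 4 dpi (replicates 1, 2 and 4). The 2 days lay on opposite sides of 0, and the difference was 1.23 ± 0.19 (adjusted p = 0.0062), with any 1 array left out as well. The brain digoxin carrier protein (RNABU18), an organic anion transporter of the blood-brain barrier, had -1.80, -1.47 and -0.76 at 1 dpi and 0.69, -0.44, -0.50 and -0.07 at 4 dpi. It had the lowest mean at 1 dpi of the 50 named clones that differed, and its difference was 1.26 ± 0.29 (adjusted p = 0.0271). Apolipoprotein E (RNAB87), the lipid carrier secreted by astrocytes, had -0.86, -0.47 and -0.70 at 1 dpi and 0.49, -0.03, 0.90 and -0.04 at 4 dpi, a difference of 1.01 ± 0.22 (adjusted p = 0.0206). Phospholemman (RNABN45), a regulator of the sodium pump, had -1.47, -0.76 and -0.55 at 1 dpi and 0.14, -0.11 and 0.02 at 4 dpi (replicates 1, 2 and 4), a difference of 0.94 ± 0.22 (adjusted p = 0.0311). The fifth, angiotensinogen, is given with the genes measured by PCR. The digoxin carrier was not past the test without replicate 1 or 2 of 1 dpi or replicate 4 of 4 dpi (adjusted p from 0.0706 to 0.146), apolipoprotein E was not without replicate 1, 2 or 3 of 1 dpi (adjusted p from 0.0515 to 0.124) and phospholemman was not without replicate 1 or 2 of 1 dpi or replicate 1 or 4 of 4 dpi (adjusted p from 0.0738 to 0.0961). Of the 6 clones, 3 passed when replicate 4 of 4 dpi was left out, and 2 when replicate 1 or replicate 2 of 1 dpi was. Fibrinogen-like protein 2 had a difference of 0.62 (adjusted p = 0.0812) and passed in 1 fit with an array left out (0.70, adjusted p = 0.0491, without replicate 3 of 4 dpi).

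Of 12 neuronal and signalling clones listed as lowered, 3 rose and 1 fell, with a median of 0.21. Oligodendrocyte-myelin glycoprotein precursor (RNACB85), a myelin protein that inhibits neurite growth, had -0.999, -0.89 and -0.44 at 1 dpi and 0.15, -0.24, -0.14 and 0.17 at 4 dpi and a difference of 0.76 ± 0.17 (adjusted p = 0.0239). The soluble guanylyl cyclase alpha 1 subunit (RNABL61), a nitric oxide receptor, had -1.27 and -0.83 at 1 dpi (replicates 2 and 3) and -0.05, -0.56, -0.20 and -0.21 at 4 dpi and a difference of 0.79 ± 0.19 (adjusted p = 0.0364). Edg-1 (RGIAW49), a sphingosine-1-phosphate receptor, had -1.25, -1.13 and -0.76 at 1 dpi and 0.15, -0.29, -0.67 and -0.18 at 4 dpi and a difference of 0.80 ± 0.19 (adjusted p = 0.0337). All 3 had means below 0 on both days and nearer to it at 4 dpi.

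Na+K+ transporting ATPase (RGIAM85), the sodium pump, was the only clone of the 159 that went farther below 0. It had 0.03, -0.44 and -0.31 at 1 dpi and -1.08, -0.72, -1.07 and -0.95 at 4 dpi, and its mean fell from -0.24 ± 0.24 (SD, n = 3) to -0.95 ± 0.17 (SD, n = 4), a difference of -0.71 ± 0.15 (adjusted p = 0.0214). Every array of 4 dpi was below every array of 1 dpi. It was not past the test without replicate 1 of 1 dpi or replicate 1 or 4 of 4 dpi (adjusted p from 0.0575 to 0.128), oligodendrocyte-myelin glycoprotein was not without replicate 1 or 2 of 1 dpi or replicate 1 or 4 of 4 dpi (adjusted p from 0.0592 to 0.128), guanylyl cyclase was not without replicate 1 or 2 of 1 dpi or replicate 1 or 4 of 4 dpi (adjusted p from 0.0737 to 0.289) and Edg-1 was not without replicate 1 or 2 of 1 dpi or replicate 1 or 4 of 4 dpi (adjusted p from 0.0738 to 0.151). Without replicate 1 of 1 dpi, or replicate 1 or 4 of 4 dpi, 0 of the 12 passed, and without replicate 2 of 1 dpi 1 did. The other clones listed as lowered at 4 dpi in this group, brain-enriched guanylate kinase-associated protein 1 (-0.51), CDCrel-1A (-0.38), CaM-KII inhibitor (-0.32) and a diacylglycerol kinase (-0.26), had differences below 0 that did not pass. Nor did those listed at 1 dpi, MEKK1 (0.43), N-copine (0.47), cpg2 (-0.01) and the G protein beta 1 subunit (0.46). The last passed in 1 fit with an array left out (0.63, adjusted p = 0.0259, without replicate 3 of 4 dpi).

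Among 14 further named clones, 4 rose and 2 fell, with a median of 0.43. TRAM1 (RGIAJ24), a protein of the translocation channel of the endoplasmic reticulum, had 0.45, 0.54 and 0.39 at 1 dpi and 1.10, 1.31, 1.71 and 1.31 at 4 dpi, a difference of 0.90 ± 0.15 (adjusted p = 0.0082). An acid sphingomyelinase-like phosphodiesterase (RNABR08) had -0.21 and -0.18 at 1 dpi (replicates 2 and 3) and 1.40, 0.90 and 0.75 at 4 dpi (replicates 1, 2 and 4), a difference of 1.21 ± 0.21 (adjusted p = 0.00923). Both were higher on every measured array of 4 dpi than on any of 1 dpi. The other pair that rose went from below to above 0 on average, synaptonemal complex protein 3 (RGIBB48) with -0.90, -0.75 and -0.56 at 1 dpi and 0.43, 0.08 and 0.06 at 4 dpi (replicates 1, 2 and 3) and the hypothetical protein FLJ10134 (RGIBA74) with -0.93, -1.22 and -0.54 at 1 dpi and 0.57, -0.01, -0.13 and 0.31 at 4 dpi. Their differences were 0.93 ± 0.16 (adjusted p = 0.00923) and 1.08 ± 0.20 (adjusted p = 0.00923). The similar-to-C. elegans hypothetical protein R10E12.1 (RGIAE37) had 0.92, 0.99 and 0.89 at 1 dpi and 0.05, 0.43, 0.07 and 0.07 at 4 dpi, a difference of -0.78 ± 0.14 (adjusted p = 0.00923), with replicate 2 of 4 dpi apart from the 3 other arrays. The kinase-like protein lyk4 (RGIAQ39) had 0.98, 1.03 and 1.10 at 1 dpi and -0.33, 0.68 and 0.10 at 4 dpi (replicates 1, 2 and 4), a difference of -0.89 ± 0.22 (adjusted p = 0.0431). TRAM1 and R10E12.1 held their calls with any 1 array left out, whereas the phosphodiesterase was not past the test without replicate 2 of 1 dpi (adjusted p = 0.0718), synaptonemal complex protein 3 was not without replicate 1 of 1 dpi (adjusted p = 0.0561), FLJ10134 was not without replicate 1 or 2 of 1 dpi (adjusted p from 0.0569 to 0.0572) and lyk4 was not without replicate 1, 2 or 3 of 1 dpi or replicate 1 or 4 of 4 dpi (adjusted p from 0.0912 to 0.13). Without replicate 1 or without replicate 2 of 1 dpi, 3 of the 14 passed. D site albumin promoter binding protein (0.76) passed in 1 fit with an array left out (0.99, adjusted p = 0.0264, without replicate 3 of 1 dpi).

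Some lists held no clone that passed. They were the 5 peptides and growth factors, with a median of -0.28, the 5 clones of RNA handling, with a median of -0.07, and prothymosin alpha, the 1 tested clone of cell death and growth (-0.40). Transforming growth factor beta-2 had -0.84 ± 0.23 (adjusted p = 0.065), neuropeptide Y -0.31, cholecystokinin precursor -0.28 and orexin precursor 1.19. The growth factor (-0.84, adjusted p = 0.0491, without replicate 3 of 4 dpi) and orexin (1.58, adjusted p = 0.0137, without replicate 1 of 4 dpi) passed in 1 fit each with an array left out. With the dye as a term the growth factor passed as well (-1.05, adjusted p = 0.00523). Poly A binding protein, cytoplasmic 1, the translation factor on mRNA tails, was spotted as 2 clones, and neither passed. RNACA38 had 0.77, 0.66 and 1.00 at 1 dpi and 0.46, 1.01, 0.59 and 0.87 at 4 dpi, a difference of -0.07 ± 0.16 (adjusted p = 0.848). RGIAS49 had 0.61, 0.52 and 1.06 at 1 dpi and 0.78, 0.84, 0.52 and 0.90 at 4 dpi, a difference of 0.03 ± 0.16 (adjusted p = 0.952).

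Some of the genes had also been measured by PCR in the study, and their array values are given here whether or not they passed. Osteopontin is given above. Angiotensinogen (RGIAJ86), the precursor of angiotensin made by astrocytes, had -1.09, -0.92 and -1.48 at 1 dpi and -0.25, -0.10, -0.36 and 0.01 at 4 dpi. Its mean rose from -1.17 ± 0.29 (SD, n = 3) to -0.18 ± 0.16 (SD, n = 4), a difference of 0.99 ± 0.16 (adjusted p = 0.00635), which held with any 1 array left out. Tissue inhibitor of metalloproteinase-1, TIMP-1 (RGIAQ65), the inducible inhibitor of matrix-degrading metalloproteinases, had 3.43, 3.25 and 3.47 at 1 dpi and -0.51, 2.31, 2.26 and 2.65 at 4 dpi. All arrays of 4 dpi were below those of 1 dpi and the difference was the lowest of all 3188 clones, but replicate 1 stood far from the other 3 arrays, and the difference of -1.71 ± 0.57 (adjusted p = 0.114) did not pass. Without that array the difference was smaller and passed (-0.98, adjusted p = 0.007, without replicate 1 of 4 dpi). TIMP-2 (RNABV95) had 0.50, 0.51 and 1.17 at 1 dpi and 1.00, 0.85, 1.31 and 1.10 at 4 dpi, a difference of 0.34 ± 0.18 (adjusted p = 0.346).

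Vitronectin (RNABR91), an adhesive plasma and matrix protein, had -1.43 and -0.98 at 1 dpi (replicates 2 and 3) and -0.32, -0.80 and -0.15 at 4 dpi (replicates 1, 2 and 4). Its arrays did not overlap between the days, yet the difference was 0.79 ± 0.23 (adjusted p = 0.0781). It passed in 1 fit with an array left out (0.97, adjusted p = 0.0276, without replicate 2 of 4 dpi) and with the dye as a term (0.70, adjusted p = 0.0326). Insulin-like growth factor II (RNABO23) had -0.90, -1.06 and -0.33 at 1 dpi and -0.76, -0.70, -0.67 and -0.59 at 4 dpi, a difference of 0.08 ± 0.17 (adjusted p = 0.845), and the S-100 related protein (RNABO14) had 1.97, 2.05 and 1.93 at 1 dpi and 0.70, 1.43, 2.90 and 1.99 at 4 dpi, a difference of -0.23 ± 0.37 (adjusted p = 0.788). CD44, the hyaluronan receptor, was measured on only 2 arrays of 4 dpi (0.10 and 2.42, after 2.80, 2.54 and 3.82 at 1 dpi) and was not compared.

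Clones of 4 cell types were followed as lists on every array, with the clones listed from the same arrays, and their part in the results above was not tested. All 4 fibroblast clones (collagen I alpha-1, collagen III alpha 1, fibronectin and osteonectin) were higher at 4 dpi. They had been listed as upregulated at 4 dpi and are the matrix clones that passed. Of the other matrix clones, prolyl 4-hydroxylase beta polypeptide, fibulin 2 and matrix Gla protein had differences below 0 and vitronectin had one above it. The mean log2 ratio of the 4 fibroblast clones ranged from -0.33 to 0.24 over the arrays of 1 dpi and from 0.98 to 1.29 over those of 4 dpi. Of 5 macrophage and microglia clones, the 2 C1q chains and osteoactivin were higher, and Fc gamma receptor III and macrophage expressed gene 1 did not pass. The mean of these 5 ranged from 0.65 to 0.91 at 1 dpi and from 1.19 to 2.12 at 4 dpi, with replicate 1 the lowest array of 4 dpi. Of 6 neuronal clones tested (neuropeptide Y, cholecystokinin, Na+K+ ATPase, CDCrel-1A, brain-enriched guanylate kinase-associated protein 1 and CaM-KII inhibitor), 1 was lower and all 6 differences were below 0. Their mean ranged from 0.07 to 0.26 at 1 dpi and from -0.46 to -0.08 at 4 dpi. These 6 had been listed as upregulated at 1 dpi or as downregulated at 4 dpi, so differences below 0 were favoured by the choice. A further neuronal clone, GABA-A receptor subunit delta, was not compared. It had -1.43, -0.66 and -1.25 at 1 dpi and -0.82 at 4 dpi, measured on replicate 2 alone, a difference of 0.29. Of 3 oligodendrocyte clones, oligodendrocyte-myelin glycoprotein was higher, while transferrin (0.54) and myelencephalon specific protease (0.36) did not pass. Fc gamma receptor III (0.77, adjusted p = 0.0149, without replicate 1 of 4 dpi) and transferrin (0.69, adjusted p = 0.0282, without replicate 2 of 4 dpi) did in 1 fit each with an array left out. The mean of the 3 oligodendrocyte clones ranged from -0.13 to 0.10 at 1 dpi and from 0.18 to 0.76 at 4 dpi. For none of the 4 lists did the arrays of the 2 days overlap, which was also so for 19.9% of all single clones tested. Because the clones came from lists drawn up on these arrays, this separation is not independent evidence. Albumin, the marker of blood plasma, was not compared.

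Of the 159 clones, 99 were outside the listed clones used and 10 were listed without a gene name. The 99 include RGIAQ93, an ID that the study listed under 2 gene names and that was therefore not used. The share that differed among clones outside the listed ones used was 3.26%, 72 higher and 27 lower of 3033, some listed IDs that were left out among them. The 2 largest rises among clones without a name were those of RNABQ01 and RNACB57. RNABQ01 had -1.34, -0.95 and 0.37 at 1 dpi and 1.22, 1.15, 0.49 and 0.93 at 4 dpi, a difference of 1.58 ± 0.32 (adjusted p = 0.0165). RNACB57 had -1.46, -0.69 and -0.53 at 1 dpi and 0.67, 0.10, 0.60 and 1.17 at 4 dpi, a difference of 1.53 ± 0.25 (adjusted p = 0.00707). The 2 largest falls were those of RNABM90, with 1.44 and 1.30 at 1 dpi (replicates 1 and 2) and -0.36, 0.56, 0.22 and 0.13 at 4 dpi and a difference of -1.24 ± 0.22 (adjusted p = 0.00923), and of RGIAQ19, with 1.85, 1.60 and 1.79 at 1 dpi and 0.06, 0.75 and 0.78 at 4 dpi (replicates 1, 2 and 4) and a difference of -1.21 ± 0.20 (adjusted p = 0.00786). RGIAQ19 and RNACB57 passed with any 1 array left out, whereas RNABQ01 did not without replicate 1 or 2 of 1 dpi (adjusted p from 0.0902 to 0.0961) and RNABM90 did not without replicate 1 or 2 of 1 dpi (adjusted p from 0.0601 to 0.103).

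A comparison could not be made for 83 listed clones, 67 of them with a gene name. On the 4 arrays of 4 dpi, 43 had 2 values, 33 had 1 and 7 had 0. Among these were syndecan 1, heparin-binding EGF-like growth factor, v-myc, gamma-glutamylcysteine synthetase, tissue factor pathway inhibitor precursor and CD44. With no minimum beyond 1 value on each day, 76 of the 83 could be fitted. Among those with 2 arrays at 4 dpi, 3 differed at an adjusted p of 0.05 or less, against 80 of all 4876 clones in that fit. They were syndecan 1 (-1.44), retinoic acid receptor alpha 2 (-1.39) and the putative N-acetyltransferase CML3 (1.64). Clones with 1 array at 4 dpi have no replicate check on that day, and their single fits are not given. Of the 61 fitted clones that were listed as upregulated, those with 1 array at 4 dpi included, 52 had a difference below 0. All 61 had been listed at 1 dpi on these same arrays, so this direction was favoured by the choice and is not independent evidence. Over the 3188 clones compared, 1573 differences were below 0.

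Promoter sequence was looked up for 36 named clones that differed, and the RefSeq table of the rat assembly GRCr8 held 22, 14 of clones that rose and 8 of clones that fell. Each promoter runs from 250 bases before to 50 after the gene start. The letters TCACNTGA, an E-box with fixed flanks searched on both strands and chosen after the sequences had been seen, stand in 3.93% of 33469 promoters of that length. They were found in 4 of the 14 promoters of clones that rose, those of Gpnmb (osteoactivin), Ctsd (cathepsin D), Grn (granulin) and Cbs (cystathionine beta synthase), and in 1 of the 8 of clones that fell, that of Atf4. The AP-1 letters TGAGTCA stand in 4.63% of all promoters, and were found in those of Gpnmb and of Omg (oligodendrocyte-myelin glycoprotein) and in 0 of the 8 of clones that fell. The letters of the cAMP response element, TGACGTCA, stand in 1.83% and were found in 0 of the 22. A match describes these letters only, and binding was not measured here. The promoters of the 3 lysosomal clones that rose with any 1 array left out are shown with that of Atf4, 5' to 3' on the gene's strand, with capitals for the E-box letters. They lie at chr4:79340878-79341177 (plus strand) for Gpnmb, chr1:206968772-206969071 (minus strand) for Ctsd, chr10:87887584-87887883 (plus strand) for Grn and chr7:113684431-113684730 (plus strand) for Atf4.
Gpnmb: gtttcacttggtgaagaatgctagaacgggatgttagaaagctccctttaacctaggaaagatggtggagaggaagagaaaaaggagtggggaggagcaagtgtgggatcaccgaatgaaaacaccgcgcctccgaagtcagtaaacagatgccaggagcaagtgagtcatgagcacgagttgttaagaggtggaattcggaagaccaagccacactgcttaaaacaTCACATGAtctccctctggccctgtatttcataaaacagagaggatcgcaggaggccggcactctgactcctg
Ctsd: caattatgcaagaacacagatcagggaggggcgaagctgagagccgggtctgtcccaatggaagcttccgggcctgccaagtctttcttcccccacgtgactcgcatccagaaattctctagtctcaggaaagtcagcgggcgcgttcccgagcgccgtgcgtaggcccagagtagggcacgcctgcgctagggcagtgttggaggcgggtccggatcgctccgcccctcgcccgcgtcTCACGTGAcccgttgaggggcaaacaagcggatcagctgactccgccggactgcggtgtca
Grn: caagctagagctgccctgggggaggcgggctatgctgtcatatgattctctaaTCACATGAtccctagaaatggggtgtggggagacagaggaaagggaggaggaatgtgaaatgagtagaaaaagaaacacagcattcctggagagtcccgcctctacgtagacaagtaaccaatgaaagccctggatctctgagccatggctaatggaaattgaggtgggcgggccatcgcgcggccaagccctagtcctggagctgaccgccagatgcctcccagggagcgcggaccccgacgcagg
Atf4: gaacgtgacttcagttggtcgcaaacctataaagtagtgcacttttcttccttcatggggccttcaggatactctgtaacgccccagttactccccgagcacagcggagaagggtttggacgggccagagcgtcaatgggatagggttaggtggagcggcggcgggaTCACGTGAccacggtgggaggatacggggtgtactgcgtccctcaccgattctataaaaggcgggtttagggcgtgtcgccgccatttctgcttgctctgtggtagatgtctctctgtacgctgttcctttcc
The first base of the match lies 23 bases before the gene start in Gpnmb, 11 in Ctsd, 197 in Grn and 83 in Atf4. Beside it, the log2 ratio of the clone went from a mean of 1.36 to 3.34 for Gpnmb, from 0.08 to 1.15 for Ctsd, from -0.15 to 1.02 for Grn and from 0.86 to -0.16 for Atf4.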

How the data were processed

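RNA from the cortex of 7 rats, 1 array each, had been labelled in 2 colours. Cy5 marked the ipsilateral RNA on replicates 1 and 2 at 1 dpi and 2 and 3 at 4 dpi, and Cy3 on the other arrays. The authors subtracted local background with GenePix Pro, dropped missing spots and those under 2 times the background, turned dye-swapped arrays, normalised each array by Lowess in the SMA package and deposited log2 ratios of injured over uninjured cortex. Spot intensities were not used here, so the number of values per array (2332 to 5208 of 6240) stands for signal over background. Ratios below the background limit are missing from the comparison, and the number of arrays limits its precision. Day, replicate and dye came from the labels, and 0 columns of values were left without a sample.

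The difference of 4 dpi minus 1 dpi was tested with limma 3.58.1 (lmFit, eBayes, R 4.3.3) on the 7 arrays without covariates, over 3188 clones with at least 2 of 3 values at 1 dpi and 3 of 4 at 4 dpi, and called at a Benjamini-Hochberg adjusted p of 0.05 or less. Means on each day against 0 came from the same fit. The methods test each day against 0 and state no test of the difference. The fit was tested on simulated data before use.

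Gene names came by clone ID from the study's lists of 253 regulated clones, of which 238 were used. An ID was left out where its values lay more than 0.2 from the listed fold change on the log2 scale (8 clones, cathepsins B and L among them), was not matched (4), was listed more than once (2) or had no value (1). The lists by role, the markers and the clones to describe were chosen with earlier results of these data known. Every named clone that passed is named with its values on every array, except 1 clone that fell, which is counted but not reported here. Clones without a gene name are given by ID, the 2 with the largest difference in each direction. Gene symbols for promoters were assigned from the listed names.

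The alternatives were a dye term, a block for the replicate number, other filters, centring, scaling to 1 median absolute deviation (MAD), other thresholds, array weights, robust eBayes, the sign of the Cy3 arrays turned, the median over arrays and each array left out. The PCR and in situ data were not analysed here.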

Additional observations from a re-analysis of the deposited data

Results flagged for a closer look

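The response differed between the days by a test of the difference itself in 159 clones, 111 higher and 48 lower at 4 dpi, as described above. In groups of 4 arrays, 43 of the described clones with a value on all arrays of 4 dpi were checked for a lone array far from the others by Dixon's test, which chance alone would pass in about 1 of 20 groups (5%), and 2 had one. TIMP-1 (RGIAQ65) lay at -0.51 on replicate 1 of 4 dpi against 2.26 to 2.65 on the other 3 arrays. The R10E12.1-like clone (RGIAE37) lay at 0.43 on replicate 2 of 4 dpi against 0.05 to 0.07 on the others.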

How the results depend on the processing

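Against 159 with the reported setting, the number of clones that differed was 156 with a dye term, 151 with arrays centred, 153 with arrays scaled to 1 MAD, 166 with robust eBayes, 112 with a value required on all 7 arrays (of 2190 clones) and 115 beyond 0.7. The number moved further to 80 with no filter (of 4876 clones), 250 with array weights, 73 and 266 at adjusted p of 0.02 and 0.1, and 0 with the sign of the Cy3 arrays turned, where 3 clones had an unadjusted p under 0.05. With single arrays left out it ranged from 37 to 200, the number of listed clones that differed from 24 to 69 (60 with all arrays), and the number that changed sign from 24 to 147 (108 with all arrays). With every array of a day on one side of 0, that number was 55. Of the 50 named calls, 14 passed with the replicate block, 34 did not and 2 could not be fitted, and all 50 kept their direction by the median over arrays. The replicate number as a block left 29 clones, 23 of them higher (of 3079 fitted), but the numbers did not pair the animals, since deviations from the day means correlated at -0.17, 0.10 and -0.27 between arrays of the same number, and not every array correlated best with its own number. Arrays of the same dye orientation correlated at -0.10 to 0.40, those of opposite orientation at -0.36 to -0.03, and 2 clones had a dye effect at an adjusted p of 0.05 or less. Leaving aside the fit with turned Cy3 signs, whose single clones were not examined, none of the 159 clones had a difference of opposite sign in another fit. Of the 95 listed clones that did not pass, 17 did in at least 1 fit, all without passing there, S-100 related protein (0.13 without replicate 1 of 4 dpi), insulin-like growth factor II (-0.07 without replicate 2 of 1 dpi) and RGIAS49 (-0.03 without replicate 1 of 1 dpi) among them. Of those 95, 4 passed with a dye term, 3 with arrays scaled, 2 with robust eBayes, 13 with array weights and 1 with the replicate block (orexin precursor, 1.23, adjusted p = 0.0344). Signal over background limited which clones could be compared, and 39 of the 159 clones lacked a value on replicate 3 of 4 dpi. Clones with 3 values at 4 dpi or 2 at 1 dpi rest on few arrays, and the cause of the moves was not tested.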
